A study of Mus musculus with 30 samples.

Results

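The collagen chains are the genes whose symbols consist of Col, a type number, the letter a and a chain number. The rule found 27 such genes among 14997 genes of the table of laser-captured midbrain floor plate, and 44 among 26005 genes of the table of cultured spheres, which include all 27. Midbrain floor plate was captured from mice of the genotype Lmx1aCreERT2; R26TRAPC at embryonic day 11 (E11, 4 libraries), E13 (5 libraries), E18 (5 libraries) and postnatal day 70 (P70, 6 libraries). Lmx1a, the gene that drives this inducible Cre recombinase, is a floor plate transcription factor, and every captured library carried the same 2 alleles, so that age is the only labelled difference. The spheres were grown in vitro from adult mice as 5 libraries named MB and 5 named FB, with no genotype given. What the letters MB and FB stand for is not given. The series text mentions 2 sources of spheres, the adult lateral ventricle (neurospheres) and the aqueduct of the midbrain (ependymal spheres). No label says that libraries came from separate animals or cultures, so p-values measure the spread between these libraries, which may be technical.

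Collagens are extracellular proteins made of 3 chains wound into a triple helix, and the chains of a trimer may come from 1 gene or from several. Fibrillar collagens form the cables of connective tissue, type IV collagens form the sheet of the basement membrane under vessels and the pial surface, and other classes decorate fibrils, span the cell membrane or form hexagonal nets. In the brain, collagens are known mainly from vessels, meninges and the early neuroepithelial basement membrane. The captured values are given as deposited and called units here. Their unit is not stated, and they behave like read numbers scaled to transcript length and library depth. Genes with a mean under 1 unit at an age are not listed for it. Changes between ages are limma log2 changes of log2(value + 1) over the genes listed at both ages, which understate changes of low genes. Sphere levels are CPM, counts scaled to the library total. A gene was called where its p-value, adjusted over all genes of the comparison, was under 0.05. In bulk RNA, fewer cells of a type and less RNA per cell cannot be told apart.

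Promoter windows are shown for 2 of the 3 pairs of type IV genes that lie head to head, Col4a1 with Col4a2 and Col4a5 with Col4a6, since these 2 pairs differed in opposite directions between the kinds of sphere, and for Col8a2, the most abundant chain at P70. On mouse build GRCm38, Col4a1 runs on chromosome 8 from 11198423 to 11312826 on the minus strand and Col4a2 from 11312805 to 11449287 on the plus strand, per GENCODE vM21. Their first exons share 22 bases on opposite strands, where reads cannot be assigned to either gene without strand, which the protocol does not record. Col4a5 (chromosome X, 141475385 to 141689234, plus strand) and Col4a6 (141165403 to 141474076, minus strand) start 1343 bases apart in RefSeq. The remaining pair, Col4a3 and Col4a4 on chromosome 1, had no line in the captured table and did not pass the count filter in spheres. Each window below runs from 250 bases before to 50 bases after the RefSeq start (build GRCm38.p6), 5′ to 3′ on the gene's own strand, with capitals on TTGGC or its reverse complement GCCAA, the core that nuclear factor I (Nfi) proteins recognise, since the series title names the Nfi factors.
Col4a1 (chr8:11312777-11313076, minus strand): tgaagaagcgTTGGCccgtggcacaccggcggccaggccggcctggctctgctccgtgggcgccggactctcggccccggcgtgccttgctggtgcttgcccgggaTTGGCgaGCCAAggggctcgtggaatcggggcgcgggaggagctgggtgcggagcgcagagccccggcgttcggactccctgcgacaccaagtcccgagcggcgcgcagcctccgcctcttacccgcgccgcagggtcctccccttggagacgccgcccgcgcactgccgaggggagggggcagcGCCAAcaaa
Col4a2 (chr8:11312555-11312854, plus strand): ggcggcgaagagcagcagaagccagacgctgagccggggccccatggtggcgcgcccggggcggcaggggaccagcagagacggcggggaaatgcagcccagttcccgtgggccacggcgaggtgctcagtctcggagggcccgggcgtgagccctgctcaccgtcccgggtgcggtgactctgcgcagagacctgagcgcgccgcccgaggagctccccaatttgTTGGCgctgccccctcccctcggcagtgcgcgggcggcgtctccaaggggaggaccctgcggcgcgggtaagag
Col4a5 (chrX:141475169-141475468, plus strand): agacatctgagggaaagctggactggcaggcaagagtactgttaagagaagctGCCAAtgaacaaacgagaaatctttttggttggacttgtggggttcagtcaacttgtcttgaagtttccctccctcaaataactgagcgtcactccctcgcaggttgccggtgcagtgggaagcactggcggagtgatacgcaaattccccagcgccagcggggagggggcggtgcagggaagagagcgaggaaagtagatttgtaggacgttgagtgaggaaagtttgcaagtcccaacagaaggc
Col4a6 (chrX:141474027-141474326, minus strand): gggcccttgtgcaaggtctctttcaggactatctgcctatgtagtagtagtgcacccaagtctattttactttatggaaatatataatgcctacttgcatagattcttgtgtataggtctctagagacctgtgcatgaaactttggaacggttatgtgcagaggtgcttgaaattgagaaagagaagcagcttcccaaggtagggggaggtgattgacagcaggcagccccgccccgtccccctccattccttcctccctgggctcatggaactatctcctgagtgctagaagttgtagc
Col8a2 (chr4:126286544-126286843, plus strand): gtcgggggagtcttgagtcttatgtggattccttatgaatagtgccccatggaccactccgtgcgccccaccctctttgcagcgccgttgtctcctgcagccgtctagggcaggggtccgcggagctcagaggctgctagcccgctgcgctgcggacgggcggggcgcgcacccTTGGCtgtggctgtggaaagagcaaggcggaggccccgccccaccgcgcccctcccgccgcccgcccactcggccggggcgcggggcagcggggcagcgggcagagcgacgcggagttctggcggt
The window of Col4a1 held 4 matches and those of Col4a2, Col4a5 and Col8a2 held 1 each, none overlapping another, while the Col4a6 window held 0. The windows of Col4a1 and Col4a2 share 78 bases, and the last match of the former and the match of the latter are the same bases read on opposite strands. The SOX core ACAAT, also searched on both strands because the title names Sox9, was in none of these 5 windows. In all, RefSeq windows were found for 35 of the 44 chains (38 windows). TTGGC occurred in 16 of these (42.1%) against 46.9% of all 32544 promoter windows, and ACAAT in 2 (5.26%) against 30.8%. The GC box GGGCGG was found on either strand in 23 collagen windows (60.5%) and in 35.9% of all windows. These matches describe the letters only.

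The captured libraries held between 1606244 and 5893747 reads as recovered from the values, and the 6 P70 libraries at most 3683902. The sphere libraries held between 6327198 and 9291311 counts. Several libraries stood apart from others of their age in collagen levels: E13 replicate 1 was high and E11 replicate 4 low in type I and type III chains, E18 replicate 1 was high in Col23a1, Col26a1 and Col9a1, E18 replicate 3 was low in Col4a5, and P70 replicate 3 was high in Col18a1 and Col4a2. Floor plate markers were present throughout the captures (all 9 of the list listed at E11, 8 at E13 and E18, and 7 at P70, where Shh and Corin were not listed). Their summed level was 412 to 638 units at E18 and 101 to 160 at P70, and 5 of the 6 tested fell over that step. In this and the other marker sums an unlisted gene counts as 0. The summed level of 10 ependymal markers, 5 of them listed at E11, ranged from 17.1 to 47.0 units at E11 and from 14400 to 21900 at P70. Of the same 10 markers, 5 were under 1 CPM on average in MB spheres and 7 in FB spheres.

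The collagen repertoire of the captured floor plate turned over with age. At E11, 21 chains were listed and Col2a1, Col18a1, Col4a1, Col3a1 and Col4a2 had the highest means. At E13, 19 chains were listed and Col2a1 stood far above the others. At E18, 24 chains were listed, led by Col4a1, and at P70, 18 were listed and Col8a2 stood far above the others. Of the 27 chains, 13 were listed at all 4 ages.

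**Figure D1:**
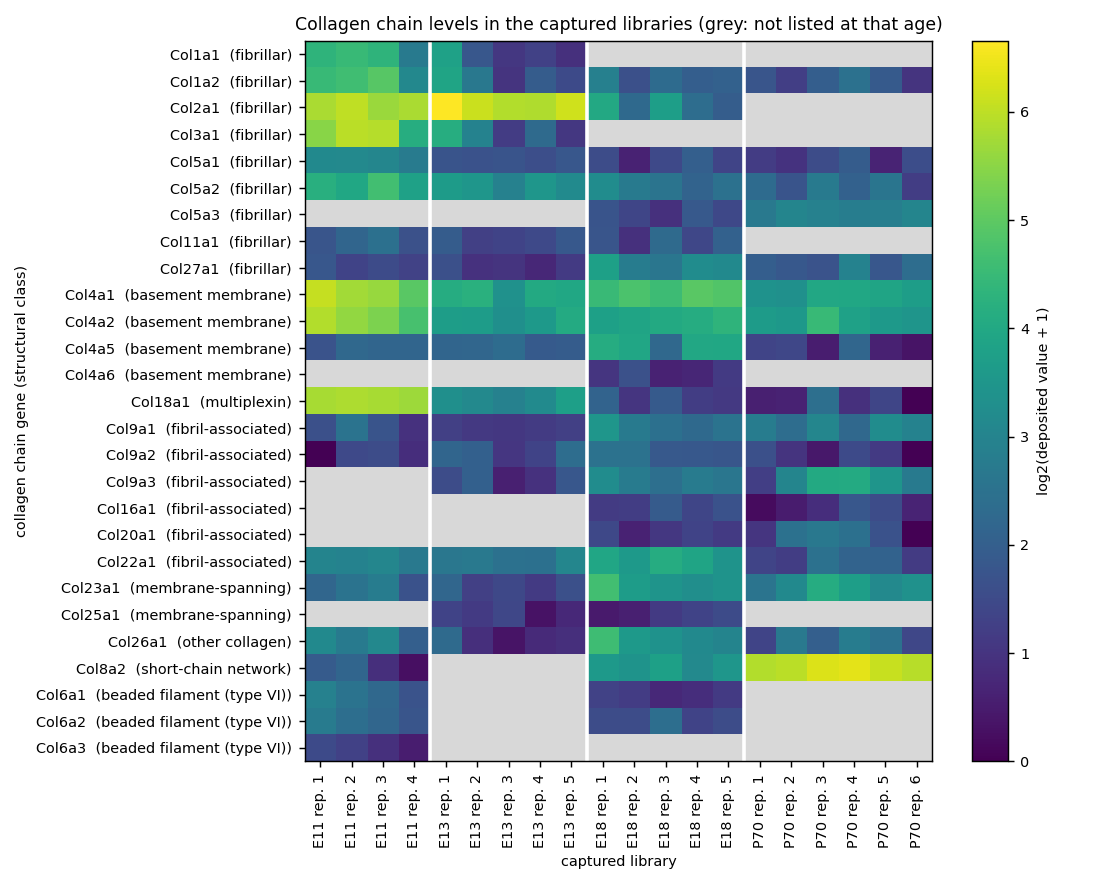
Levels of the 27 collagen chains (rows, grouped by structural class) in the 20 captured libraries (columns), as log2 of the deposited value plus 1, with grey where a gene is not listed at that age. The bright rows pass from Col2a1, Col18a1, Col3a1 and the Col4a1 and Col4a2 pair at E11 to Col8a2 at P70.

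The summed collagen level was 388, 395, 375 and 234 units in the 4 E11 libraries and 224, 156, 114, 128 and 154 at E13, so that every E13 library lay below every E11 library. At E18 it was 207, 143, 148, 147 and 147 units, and at P70 it ranged from 116 to 193 with a median of 141. Fibrillar chains made up 43.5% to 52.0% of the sum at E11 and 57.8% to 72.4% at E13, then 14.5% to 23.8% at E18 and 10.1% to 13.9% at P70. The multiplexin Col18a1 held 14% to 21.5% at E11 and at most 1.80% at E18. Basement membrane chains held 25.1% to 43.0% at E18 against 16.6% to 19.6% at P70. The short-chain network class, which in these libraries is Col8a2, held 5.29% to 8.57% at E18 and 40.9% to 50.1% at P70. These shares are descriptions and were not tested.

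**Figure D2:**
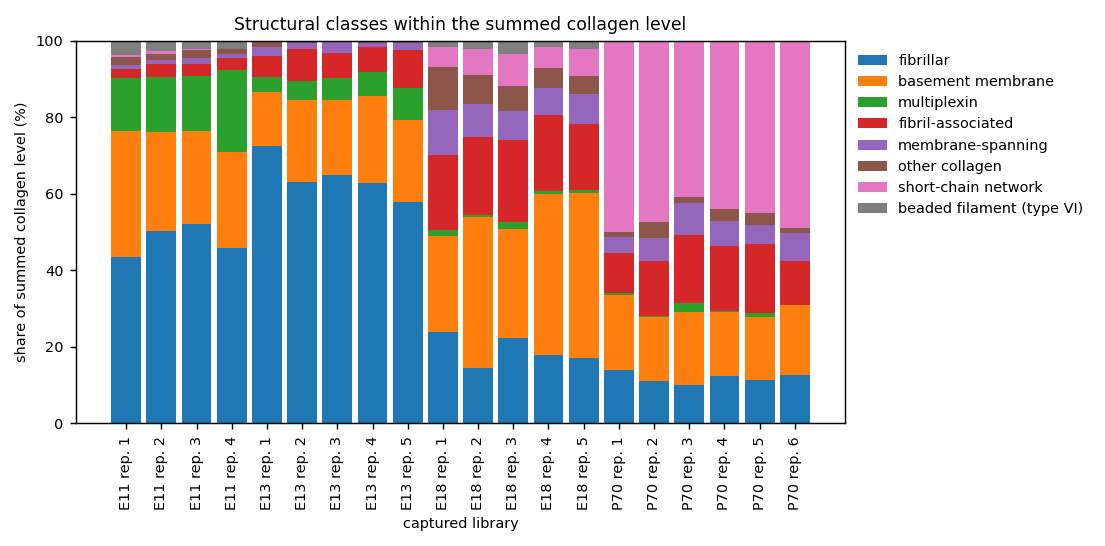
Share of the summed collagen level (percent, y axis) taken by each structural class in each captured library (x axis). Fibrillar chains fill 57.8% to 72.4% of the E13 bars, and the short-chain network class fills 40.9% to 50.1% of the P70 bars.

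From E11 to E13, 8 of the 17 chains listed at both ages fell and 0 rose. Over all 11567 genes tested, 20.9% were called, 11.5% lower and 9.44% higher. The median log2 change of the 17 chains was -0.81 against -0.04 over all genes. A further 4 chains (Col6a1, Col6a2, Col6a3 and Col8a2) were listed at E11 only and 2 (Col9a3 and Col25a1) at E13 only. Without E13 replicate 1, again 8 chains fell, and without E11 replicate 4, 9 fell. From E13 to E18, 8 of 17 chains rose and 3 fell, where 47.4% of all 11797 genes were called, 22.4% higher and 25.0% lower, with a median change of 0.36 against -0.04. Col1a1 and Col3a1 dropped off the list, and 7 chains (Col4a6, Col5a3, Col6a1, Col6a2, Col8a2, Col16a1 and Col20a1) joined the list at E18. Without E18 replicate 1, 8 rose and 3 fell, and without E18 replicate 3, 8 rose and 2 fell. From E18 to P70, 2 of 18 chains rose and 6 fell, where 40.8% of all 12353 genes were called, 16.9% higher and 24.0% lower, with medians of -0.47 and -0.14. With library medians set equal, the calls over all genes moved from 2082 higher and 2960 lower to 2523 higher and 2261 lower, while 2 chains again rose and 6 fell. At P70, 6 chains of E18 (Col2a1, Col4a6, Col6a1, Col6a2, Col11a1 and Col25a1) were no longer listed, and none was listed at P70 alone. Adjacent comparisons share the libraries of the age between them.

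Among the fibrillar class, the chains of types I and III were highest at E11 and fell by E13. Col3a1, the only chain of the type III homotrimer, measured 43.1, 62.0, 58.9 and 16.6 units in the E11 libraries and 16.6, 6.74, 1.27, 3.92 and 1.12 at E13, and replicate 4 at E11 and replicate 1 at E13 met near the same level. It fell by 3.04 on the log2 scale (SE 0.58, limma adjusted p = 0.00263). Col1a1, the major chain of type I collagen, measured 19.1, 21.6, 19.2 and 5.67 units at E11 and 13, 2.49, 1.10, 1.46 and 0.883 at E13. The ages overlapped, since E13 replicate 1 exceeded E11 replicate 4, and Col1a1 fell by 2.20 (SE 0.56, limma adjusted p = 0.0136). Its partner Col1a2 measured 21.3, 23.6, 29.7 and 7.62 units at E11 and 13.7, 5.34, 1.01, 2.86 and 1.81 at E13, and fell by 2.09 (SE 0.47, limma adjusted p = 0.00273). E13 replicate 1 again lay above E11 replicate 4. Without E13 replicate 1, the log2 changes of Col3a1, Col1a1 and Col1a2 were -3.49, -2.70 and -2.51, and without E11 replicate 4 they were -3.45, -2.61 and -2.48. Neither Col1a1 nor Col3a1 was listed at E18 or P70, while Col1a2 measured 3.76 ± 1.67 units at E18 (SD, n = 5) and 2.50 ± 1.28 at P70 (n = 6), with no call between those ages. In a type I trimer of 2 kinds of chain, Col1a1 stood at 0.648 to 0.915 of Col1a2 in the E11 libraries and at 0.466 to 1.09 at E13.

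As a sum, fibroblast and meninges markers moved with these chains. The summed level of the 9 markers in the table, with an unlisted marker counted as 0, was 53.3, 65.9, 66.1 and 23.8 units in the E11 libraries and 26.4, 11.8, 4.94, 9.10 and 5.95 at E13, so that the low E11 library and the high E13 library for type I and III collagen were also the low and the high library for these markers. All 9 were listed at E11 and 4 at E13, 3 at E18 and 3 at P70. Lum, a fibril-binding proteoglycan of connective tissue, measured 22.7 ± 8.94 units at E11 (SD, n = 4) and 2.58 ± 3.12 at E13 (n = 5). Of the 4 markers tested between these ages, 2 fell (Lum and Twist1) and 0 rose. Dcn was not called, at 12.1, 6.83, 8.67 and 3.56 units at E11 and 13.8, 4.5, 1.15, 3.04 and 1.61 at E13. The part of these cells in the fall of Col1a1, Col1a2 and Col3a1 was not tested.

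**Figure D3:**
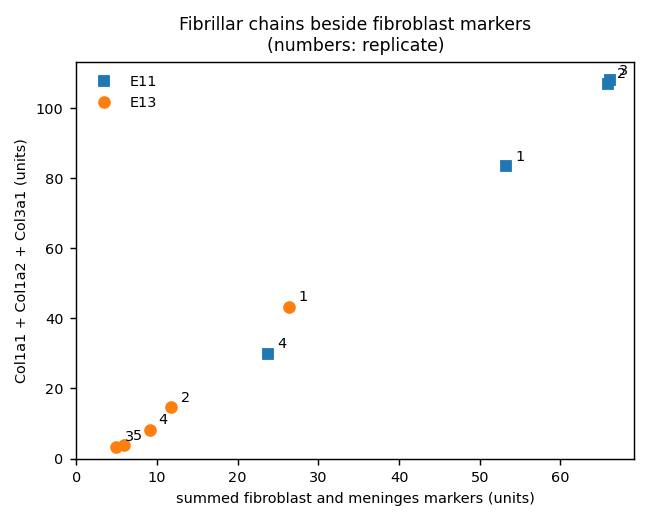
Summed level of Col1a1, Col1a2 and Col3a1 (y axis, units) against the summed level of the fibroblast and meninges markers (x axis, units) in the E11 (squares) and E13 (circles) libraries, with replicate numbers. E11 replicate 4 (29.9 units of the 3 chains) and E13 replicate 1 (43.3 units) lie next to each other between the remaining libraries of the 2 ages.

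Col2a1, the chain of type II collagen known from cartilage and notochord, kept its level from E11 to E13 within the spread and then fell. It measured 55.0, 63.8, 49.5 and 55.0 units at E11 and 100, 69.0, 58.8, 57.6 and 71.0 at E13, with a log2 difference of 0.33 that did not pass (SE 0.35, limma adjusted p = 0.573). At E18 it measured 15.1, 3.88, 12.3, 4.17 and 2.89 units, below every E13 library, with replicates 1 and 3 the highest. The fall was 3.28 on the log2 scale (SE 0.33, limma adjusted p = 4.17e-07), and Col2a1 was not listed at P70.

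The type V chains, which set the diameter of type I fibrils, took separate courses. Col5a1 measured 7.91, 7.78, 7.34 and 5.87 units at E11 and 2.32, 2.18, 2.32, 2.02 and 2.47 at E13, with the ages apart, and fell by 1.33 (SE 0.27, limma adjusted p = 0.00125). Col5a2 measured 17.5, 14.6, 23.8 and 13 units at E11 and 11.5, 10.3, 6.64, 10.2 and 8.07 at E13, and its change of -0.81 missed the threshold (SE 0.29, limma adjusted p = 0.0515) although the ages did not overlap. At E18 it measured 8.39, 5.63, 4.89, 3.36 and 4.55 units, and replicate 1 lay within the E13 range. The further fall of 0.73 (SE 0.27, limma adjusted p = 0.0332) was lost when any of E13 replicates 1, 2 and 4 or E18 replicates 3, 4 and 5 was left out, with an adjusted p of up to 0.0942. Col5a3, the chain of type V found in fewer tissues, was listed only at E18 (2.32, 1.64, 0.890, 2.60 and 1.71 units) and P70 (lowest 5.46, median 6.35, highest 7.23). It was higher in every P70 library and rose by 1.42 (SE 0.22, limma adjusted p = 0.000145).

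Col27a1, a fibrillar chain known from developing cartilage, peaked at E18. It measured 2.08, 0.933, 0.995, 0.675 and 1.19 units at E13 and 12.7, 5.99, 5.15, 8.36 and 8.01 at E18, with every E18 library above every E13 library, and rose by 2.03 (SE 0.27, limma adjusted p = 2.15e-06). At P70 it ranged from 2.26 to 6.69 with a median of 2.78, which overlapped E18, and it fell by 1.01 (SE 0.26, limma adjusted p = 0.00383). Col11a1, which copolymerises with type II collagen, lay between 0.906 and 4.47 units in all libraries of the 3 embryonic ages and passed no test there.

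The chains of the widespread type IV network, Col4a1 and Col4a2, were among the most abundant at every age. Col4a1 measured 66.6, 51.8, 48.7 and 29.8 units at E11 and 16.4, 17.8, 9.27, 15.5 and 14.5 at E13, with the ages apart, and fell by 1.65 (SE 0.22, limma adjusted p = 1.84e-05). It then measured 22.0, 26.1, 22.5, 30.2 and 28.1 units at E18, above every E13 library, a rise of 0.79 (SE 0.21, limma adjusted p = 0.00378). Its P70 values ran from 9.23 to 15.0 with a median of 12.8, below every E18 library, a fall of 1.02 (SE 0.20, limma adjusted p = 0.000384). Col4a2, whose promoter window overlaps that of Col4a1 above, measured 58.6, 46.6, 39.5 and 25.2 units at E11 and 12, 11.8, 8.88, 10.9 and 15.9 at E13, and fell by 1.71 (SE 0.24, limma adjusted p = 2.46e-05). Both genes had their lowest E11 value in replicate 4 and no overlap with E13. At E18 Col4a2 measured 12.7, 13.7, 15.6, 16.3 and 19.2 units, overlapping E13, with a difference of 0.36 that did not pass (limma adjusted p = 0.196). In edgeR on the recovered reads it passed at 0.45 (adjusted p = 0.0475), a test that may overstate precision, since 67.5% of the recovered read numbers from 1 to 20 were even and mates may have been counted separately. In P70 libraries it spanned 10.1 to 21.3 with a median of 11.3 and was not called (log2 difference -0.27, limma adjusted p = 0.336). The network needs Col4a1 and Col4a2 in a fixed proportion, and the ratio of the first to the second spanned 1.11 to 1.23 (E11), 0.907 to 1.51 (E13), 1.44 to 1.91 (E18) and 0.702 to 1.25 (P70), so that each E18 ratio lay above each P70 ratio.

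Vessel cells are known to make type IV chains, so their markers are given beside them. The summed level of 10 endothelial markers, of which 10, 7, 6 and 5 were listed at the 4 ages in order, lay between 82.0 and 102 units at E11 and between 63.1 and 92.2 at E13. At the later ages it lay between 24.2 and 35.6 (E18) and between 25.7 and 77.9 (P70). From E11 to E13, when Col4a1 fell, 1 of 7 tested fell (Cdh5, a junction protein of endothelium) and 0 rose, with a median log2 change of -0.70. From E13 to E18, when Col4a1 rose, 5 of 6 fell and 0 rose. Mural marker sums spanned 54.0 to 159 units (E11), 63.0 to 86.5 (E13), 54.3 to 101 (E18) and 76.2 to 283 (P70). Of these, Myl9 alone averaged 51.0 units at E18 and 150 at P70. Of the mural markers tested, 1 of 6 fell and 0 rose from E11 to E13, and 3 of 7 fell and 0 rose to E18. To P70, 2 of 5 rose and 0 fell. The part of vessel cells in the type IV changes was not tested.

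Col4a5, a chain of the less common type IV networks, showed a peak at E18. It measured 2.28, 3.77, 3.52 and 3.54 units at E11 and 3.49, 3.57, 4.08, 2.72 and 2.83 at E13, which overlapped (log2 difference 0.025, SE 0.37, limma adjusted p = 0.973). At E18 it measured 16.5, 14.4, 3.75, 14.8 and 14.6 units, with replicate 3 alone inside the E13 range. It rose by 1.55 (SE 0.35, limma adjusted p = 0.000893), or by 1.90 without E18 replicate 3. At P70 Col4a5 ranged from 0.285 to 3.55 units with a median of 1.05, below every E18 library, and fell by 2.57 (SE 0.34, limma adjusted p = 3.71e-06). Its head-to-head neighbour Col4a6 was listed at E18 alone, at 1.04, 2.14, 0.543, 0.640 and 1.21 units, with Col4a5 at 6.70 to 23.1 times its level in the same libraries.

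Col18a1, a multiplexin of basement membranes whose end fragment is endostatin, fell in 2 steps. It measured 54.2, 56.7, 53.8 and 50.2 units at E11, a narrow range, and 8.94, 7.77, 6.60, 8.18 and 12.6 at E13, with no overlap. That fall was 2.51 on the log2 scale (SE 0.35, limma adjusted p = 3.02e-05). At E18 it measured 3.33, 1.04, 2.67, 1.31 and 1.16 units, below every E13 library, a fall of 1.80 (SE 0.33, limma adjusted p = 0.000134). At P70 it ranged from 0 to 4.42 with a median of 0.724, replicate 3 being the highest, and the difference of -0.47 did not pass (SE 0.32, limma adjusted p = 0.253). Without P70 replicate 3 it was -0.76 and passed (limma adjusted p = 0.0241).

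**Figure D4:**
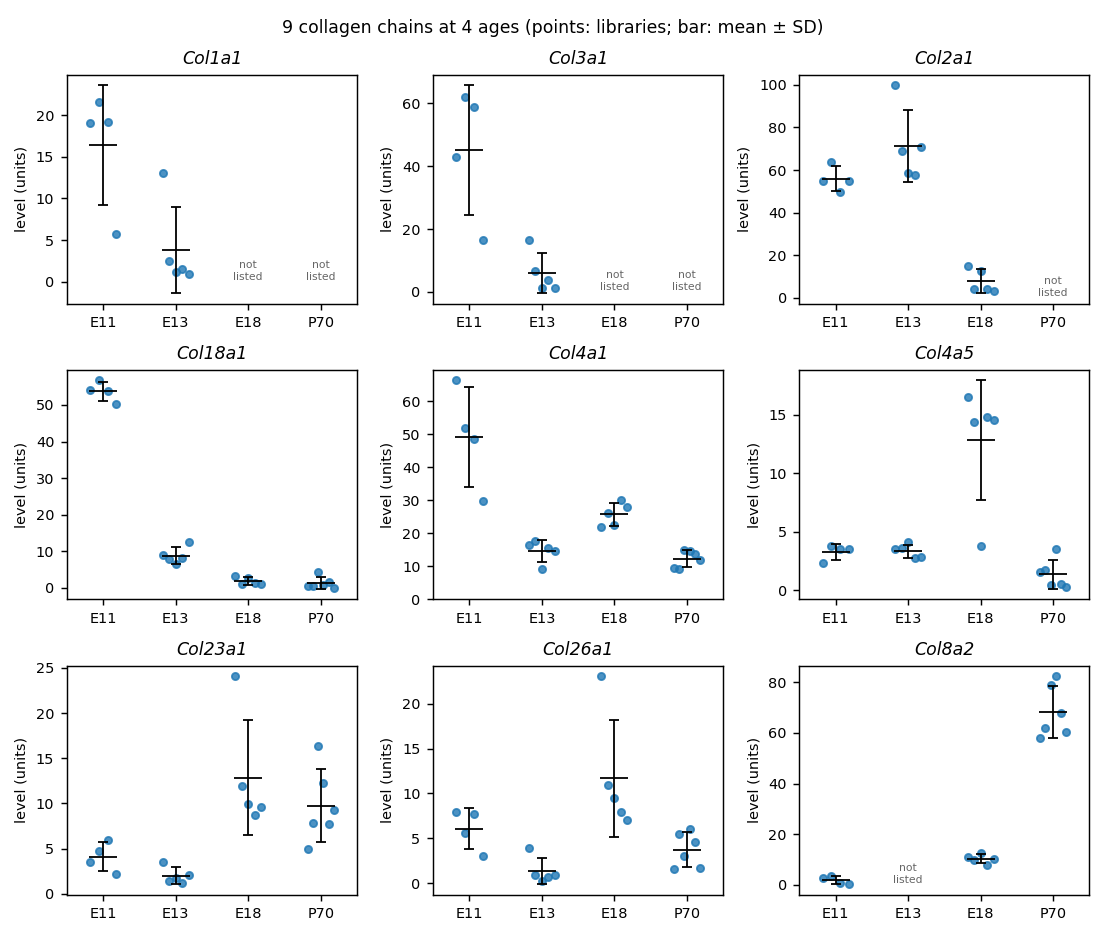
Levels (y axis, units) of 9 chains at the 4 ages (x axis), with points for libraries and bars for the mean and SD. Col18a1, Col1a1 and Col3a1 are highest at E11, Col4a5 peaks at E18 apart from replicate 3 at 3.75 units, and Col8a2 reaches 58.1 to 82.5 units at P70.

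Of the fibril-associated chains, which bind to the surface of fibrils or to other matrix, 3 of 4 tested rose from E13 to E18. Col9a1, a chain of type IX collagen, measured 1.41, 1.15, 1.12, 1.22 and 1.38 units at E13 and 10.2, 5.54, 4.49, 3.82 and 4.80 at E18, with the ages apart and E18 replicate 1 the highest. It rose by 1.52 (SE 0.28, limma adjusted p = 0.000129), and by 1.32 without that replicate. Col9a3, its partner in the type IX trimer, measured 1.90, 3.11, 0.496, 0.937 and 2.48 units at E13 and 8.47, 5.77, 4.37, 5.87 and 5.16 at E18, and rose by 1.39 (SE 0.43, limma adjusted p = 0.0120). No E18 library overlapped E13 in Col9a3, and neither gene was called from E18 to P70. The remaining partner Col9a2 was not called from E13 to E18, and from E18 (4.67, 4.65, 2.63, 2.58 and 2.42 units) to P70 (0 to 2.08, median 1.10) it fell by 1.15 (SE 0.35, limma adjusted p = 0.0123). That call was lost in edgeR on recovered reads (-1.59, adjusted p = 0.0838). In the E18 libraries Col9a1 stood at 0.650 to 1.20 of Col9a3.

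Col22a1, a fibril-associated chain known from tissue junctions, measured 5.28, 5.51, 4.6, 4.52 and 7.32 units at E13 and 14.3, 11.2, 16.5, 13.7 and 9.63 at E18. It rose by 1.12 (SE 0.25, limma adjusted p = 0.000763) with the ages apart. Levels at P70 ran from 1.23 to 4.62 with a median of 2.42, also apart from E18, and fell by 2.05 (SE 0.24, limma adjusted p = 8.22e-07). Col16a1 and Col20a1 were listed at E18 and P70 only, below 5.50 units in every library, and were not called.

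Col23a1, a collagen anchored in the cell membrane, measured 3.57, 1.38, 1.73, 1.21 and 2.06 units at E13 and 24.1, 11.9, 9.96, 8.72 and 9.63 at E18, where replicate 1 was highest. All E18 libraries lay above all E13 libraries, and it rose by 2.17 (SE 0.31, limma adjusted p = 5.87e-06), or by 1.93 without E18 replicate 1. From E11 (3.57, 4.75, 5.98 and 2.21 units) to E13 its change of -0.77 did not pass (limma adjusted p = 0.10), but it passed with a weight per library (adjusted p = 0.00851) and in edgeR on recovered reads (adjusted p = 0.0405), with the limit on its precision given for Col4a2. At P70 it ranged from 4.92 to 16.4 units with a median of 8.57 and was not called. Col25a1, the other membrane-spanning chain of the captures, was listed at E13 and E18 at 0.258 to 1.89 units.

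Col26a1, which encodes a secreted collagen outside the main classes, dipped at E13 and had its highest mean at E18. The E18 libraries overlapped those of E11, and these ages were not tested against each other. It measured 7.95, 5.62, 7.67 and 3.06 units at E11 and 3.96, 0.878, 0.274, 0.726 and 0.863 at E13, where replicate 1 overlapped E11, and fell by 1.71 (SE 0.40, limma adjusted p = 0.00420). At E18 it measured 23.1, 10.9, 9.5, 7.95 and 7.01 units, above every E13 library, a rise of 2.49 (SE 0.38, limma adjusted p = 1.39e-05). Without E13 replicate 1 these changes were -2.02 and 2.81, and without E18 replicate 1 the rise was 2.23. P70 libraries ran from 1.58 to 5.98 with a median of 3.82, below every E18 library, and it fell by 1.41 (SE 0.37, limma adjusted p = 0.00397).

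Col8a2, a short-chain collagen that forms hexagonal nets in Descemet's membrane of the cornea, was the chain with the highest P70 level. Its promoter window is the last of those shown above. It measured 2.78, 3.47, 0.878 and 0.207 units at E11, was not listed at E13, and measured 11.0, 9.68, 12.7, 7.81 and 10.3 at E18. At P70 it ranged from 58.1 to 82.5 units with a median of 65.0, from 574 to 990 reads per library. Every P70 library lay above every E18 library, and Col8a2 rose by 2.62 (SE 0.27, limma adjusted p = 8.02e-07). Its E18 to P70 log2 change lay between 2.53 and 2.80 in all alternatives run. Beside it, the summed ependymal markers were 6290 to 9110 units at E18 and 14400 to 21900 at P70, and 8 of the 10 rose. Summed choroid plexus markers were 60.1 to 120 units at E18 and 247 to 367 at P70, after 353 to 536 at E11. Folr1 alone made up 53.6 ± 19.3 units at E18 (SD, n = 5) and 259 ± 41.1 at P70 (n = 6). Ttr and Kcne2 were not listed at E18, and of 3 choroid plexus markers tested 2 rose and 0 fell. Summed oligodendrocyte lineage markers were 169 to 252 units at E18 and 368 to 965 at P70, and of 7 tested 3 rose and 2 fell. The summed mural markers were 54.3 to 101 units at E18 and 76.2 to 283 at P70. Of 5 mural markers tested, 2 rose and 0 fell. Myl9, a smooth muscle myosin light chain, rose from 51.0 ± 23.9 (SD, n = 5) to 150 ± 56.7 units (n = 6). Acta2 rose from 1.22 ± 1.22 to 13.6 ± 9.83 units, by 2.62 on the log2 scale (limma adjusted p = 0.000508). Pdgfrb, Cspg4 and Notch3 were listed at E18 and not at P70. The part of any of these cells in the rise of Col8a2 was not tested.

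The beaded-filament chains of type VI, found around many connective tissue cells, were low. Col6a1 measured 6.66, 4.81, 3.73 and 2.25 units and Col6a2 measured 5.88, 4.29, 3.57 and 2.40 at E11, in the same order across libraries. At E18 Col6a1 measured 0.707 to 1.48 and Col6a2 1.52 to 4.31 units, and neither was listed at E13 or P70, while Col6a3 was listed at E11 alone (0.454 to 1.84). The other 17 of the 44 chains had no line in the captured table.

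In the spheres, which were tested separately, 18 of the 44 chains passed the filter on low counts. Of these, 3 were higher in MB and 7 in FB, where 29.6% of all 12886 genes tested were called, 15.3% higher in MB and 14.3% lower. The median log2 difference, MB against FB, was -0.57 for the 18 chains and -0.02 for all genes. The 26 chains that did not pass had group means of at most 2.09 CPM (Col8a1 in FB), and 8 of them reached 1 CPM in either kind of sphere. Markers of other cells also differed between the kinds: 7 of 8 neural stem and radial glia markers were lower in MB (sums of 2620 to 2960 against 4540 to 4870 CPM), and of 10 oligodendrocyte lineage markers 6 were lower and 2 higher in MB. Of 3 choroid plexus markers tested, 1 was higher and 1 lower in MB. Ttr measured 0.0569 ± 0.0779 CPM in MB and 36.2 ± 3.28 in FB (SD, n = 5 each). Otx2 went the other way, at 16.5 ± 0.835 CPM in MB and 2.4 ± 1.48 in FB. Their part in the collagen differences was not tested.

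The type IV chains split by gene pair. Col4a1 measured 19.1, 14.6, 19.2, 17.2 and 18.6 CPM in MB and 7.79, 6.93, 9.36, 5.34 and 9.87 in FB, with no overlap, and was higher in MB by 1.15 on the log2 scale (SE 0.22, edgeR adjusted p = 0.000477). Col4a2 measured 6.36, 7.00, 6.53, 4.90 and 10.1 CPM in MB and 4.19, 1.96, 2.91, 0.593 and 4.21 in FB, also apart, and was higher in MB by 1.31 (SE 0.43, edgeR adjusted p = 0.0279). That call was lost without MB replicate 5 (1.14, adjusted p = 0.0853) or FB replicate 2 (1.21, adjusted p = 0.0611). In the other pair the order was the opposite. Col4a5 measured 21.8, 26.9, 23.4, 37.0 and 28.9 CPM in MB and 45.7, 53.5, 39.7, 66.1 and 43.2 in FB, a difference of -0.87 (SE 0.17, edgeR adjusted p = 0.000429). Col4a6 measured 5.49, 4.62, 2.73, 7.59 and 1.83 CPM in MB and 22.8, 26.2, 19.4, 20.3 and 38.8 in FB, a difference of -2.56 (SE 0.32, edgeR adjusted p = 3.51e-06). Neither gene's libraries overlapped between the kinds of sphere. Per kilobase, Col4a5 stood at 1.20 to 2.25 times Col4a1 in MB and at 4.44 to 13 times in FB, and at 4.18 to 16.6 times Col4a6 in MB and 1.17 to 3.43 times in FB.

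Col9a3 had the highest mean level per kilobase of any chain in both kinds of sphere. It averaged 40.8 CPM per kilobase in MB, followed by Col16a1 at 6.32, and 18.9 in FB, followed by Col18a1 at 14.8. It measured 102, 91.8, 126, 88.2 and 125 CPM in MB and 55.7, 62.6, 49.9, 49.6 and 29.3 in FB, and was higher in MB by 1.09 (SE 0.15, edgeR adjusted p = 1.77e-05) with no overlap. Its trimer partners were low. Col9a1 stood, per kilobase, at 0.00976 to 0.0378 of Col9a3 in the MB libraries, and Col9a2 at 0.00403 to 0.0421. In the FB libraries Col9a2 stood at 0.00784 to 0.0398 of Col9a3. Col9a1 had no counts in 1 FB library and stood at 0.0111 to 0.0723 of Col9a3 in the others. In the captures the ratio of Col9a1 to Col9a3 spanned 0.368 to 2.26 (E13), 0.650 to 1.20 (E18) and 0.238 to 4.37 (P70), but captures and spheres were normalized separately and were not tested against each other.

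The remaining called chains were higher in FB. Col18a1 measured 42.3, 30, 41.8, 40.6 and 52.2 CPM in MB and 101, 112, 94.8, 117 and 94.9 in FB, a difference of -1.35 (SE 0.12, edgeR adjusted p = 5.13e-08). Col11a1 measured 23.8, 22.3, 36.9, 24.0 and 41.6 CPM in MB and 61.1, 80.3, 64.7, 67.6 and 67.8 in FB, a difference of -1.22 (SE 0.16, edgeR adjusted p = 7.76e-06). For both, every FB library lay above every MB library. Col26a1 measured 3.32, 3.08, 4.63, 1.42 and 2.88 CPM in MB and 21.9, 23.1, 23.4, 23.4 and 15.4 in FB, and its difference of -2.81 was the largest in size among the 18 chains (SE 0.27, edgeR adjusted p = 1.22e-07). Col5a3 measured 4.48, 2.10, 7.36, 2.53 and 5.37 CPM in MB and 9.89, 11.5, 9.15, 12.6 and 13.2 in FB, a difference of -1.38 (SE 0.33, edgeR adjusted p = 0.00290). The FB libraries were again all above the MB libraries for both of these genes. Col5a2 measured 33.4, 39.2, 37.8, 47.9 and 28.0 CPM in MB and 54.8, 55.7, 40.4, 52.2 and 45.6 in FB, which overlapped. Its difference of -0.44 (SE 0.14, edgeR adjusted p = 0.0245) was lost when any of MB replicates 1 and 5 or FB replicates 1, 2 and 4 was left out, with an adjusted p of up to 0.0667.

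**Figure D5:**
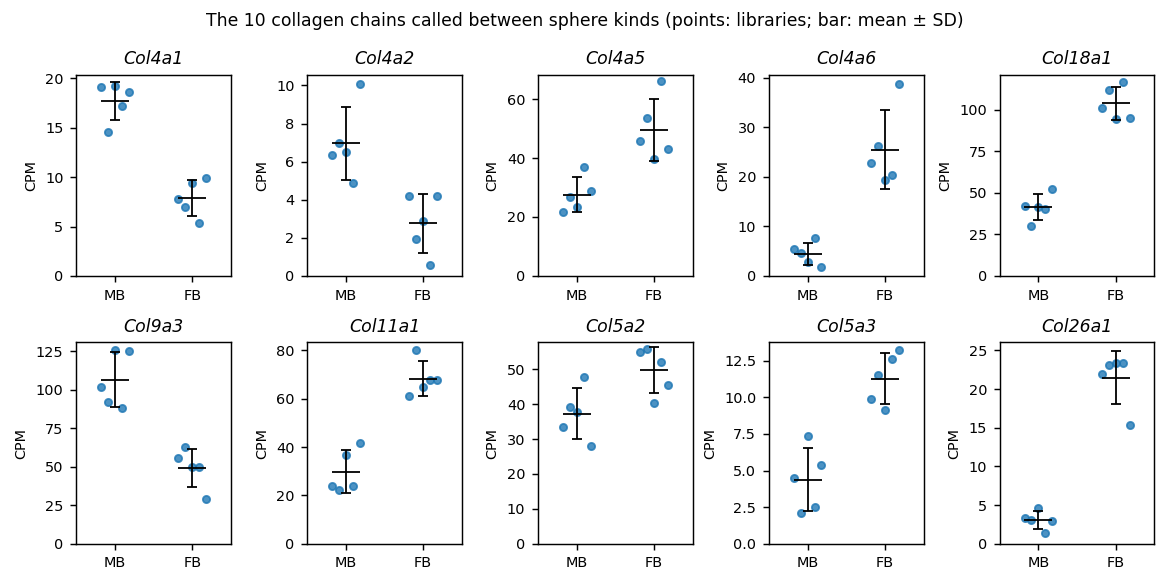
Levels (y axis, CPM) in MB and FB spheres (x axis) of the 10 chains called between them, with points for libraries and bars for the mean and SD. Col4a1, Col4a2 and Col9a3 are higher in MB and the other 7 in FB, and Col5a2 alone among the 10 has overlapping libraries.

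Type I chains were low in spheres (Col1a1 1.10 ± 0.644 CPM in MB and 2.88 ± 2.52 in FB, Col1a2 at 0.158 to 5.24 in all libraries) and were not called. Col16a1, a fibril-associated chain, was at 32.9 ± 3.56 CPM in MB and 26.8 ± 8.48 in FB (SD, n = 5 each) with no call (edgeR adjusted p = 0.308). Other highest members of their classes were near the floor: Col6a1 at 0 to 4.04 CPM, Col7a1 (the anchoring fibril chain) at 0 to 5.20, Col8a1 at 0 to 3.66 and Col23a1 at 0 to 2.26. Col8a1 lay at 0 to 0.131 CPM in MB and 0.361 to 3.66 in FB, with no overlap. It did not pass the filter on low counts and was not tested. Col8a2 was at 0.289 CPM or less in every sphere library. Fibroblast and meninges markers summed to 28.0 to 55.6 CPM in MB and 35.6 to 52.4 in FB, with Pdgfra, which oligodendrocyte precursors also express, at 36.7 and 40.7 CPM on average and 10 of the 12 markers under 1 CPM in each kind. Endothelial markers summed to 8.69 to 15.2 CPM in MB and 8.99 to 15.4 in FB.

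The counts of partner genes below stand beside the shares called over all genes, which were 20.9% from E11 to E13, 47.4% to E18, 40.8% to P70 and 29.6% between spheres. Counts near those shares say nothing particular about a list. Of 20 enzymes and chaperones of collagen synthesis tested from E11 to E13, 2 rose and 2 fell. P4ha3, a subunit of prolyl 4-hydroxylase, rose by 2.01 from 16.9 ± 5.57 (SD, n = 4) to 71.0 ± 20.7 units (limma adjusted p = 2.15e-05), and Serpinh1, the collagen chaperone Hsp47, fell by 1.31 from 59.9 ± 22.7 to 22.7 ± 5.53 (limma adjusted p = 0.0105). From E13 to E18, 6 of 19 rose and 2 fell. P4ha2 rose by 1.68 (SE 0.28, limma adjusted p = 3.18e-05), while Ppib, a prolyl isomerase of the secretory pathway, fell by 1.84 (SE 0.31, limma adjusted p = 4.09e-05). From E18 to P70, 2 of 19 rose and 7 fell, among them P4ha1, by 1.72 (SE 0.35, limma adjusted p = 0.000536). Between spheres, 5 of 18 were higher in MB and 2 in FB, with Plod1, a lysyl hydroxylase, at 199 ± 15.3 CPM in MB and 71.1 ± 6.56 in FB (edgeR adjusted p = 5.28e-11).

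Of the maturation and crosslinking list, 0 of 5 tested rose and 2 fell from E11 to E13, 1 of 4 rose and 1 fell to E18, and 0 of 4 rose and 2 fell to P70. Pcolce, the enhancer of procollagen C-proteinase, fell by 2.29 from E11 to E13 (SE 0.58, limma adjusted p = 0.00873). Bmp1, that proteinase itself, rose by 1.82 to 146 ± 22.3 units at E18 and then fell by 1.95 to 38.4 ± 13.1 at P70 (limma adjusted p = 2.47e-07 and 1.20e-07). In spheres 2 of 9 were higher in MB, including Loxl3, a lysyl oxidase, at 42.0 ± 11.1 against 8.14 ± 4.35 CPM (edgeR adjusted p = 2.38e-05), and 4 in FB. Of the breakdown list, which holds proteases and their inhibitors, 2 of 9 rose and 3 fell from E11 to E13, 4 of 7 rose and 1 fell to E18, 2 of 7 rose and 3 fell to P70, and 4 of 9 were higher in MB and 2 in FB. Its leading members were the inhibitors: Timp4 rose by 4.0 from E13 to E18, from 8.09 ± 4.19 to 136 ± 32.7 units (limma adjusted p = 4.68e-09), and was higher in MB spheres at 210 ± 16.3 against 111 ± 7.25 CPM (edgeR adjusted p = 1.94e-08). Of 4 collagen receptors tested between each pair of ages, 0 were called from E11 to E13 (limma adjusted p from 0.323 to 0.938), 1 fell to E18, and 2 rose and 1 fell to P70. Ddr1, a receptor tyrosine kinase for collagen, rose by 1.52 to 212 ± 83.5 units at P70 (limma adjusted p = 0.000137), while Itgb1 fell by 1.18 to 17.9 ± 4.31 (limma adjusted p = 1.02e-05). Of 5 receptors tested in spheres, Ddr2 was higher in MB (49.0 ± 9.37 against 24.1 ± 4.48 CPM) and Ddr1 in FB (543 ± 33.7 against 342 ± 14.8).

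Among other basement membrane proteins, 2 of 10 rose and 1 fell from E11 to E13, where 20.9% of all genes were called, namely Sparc and Agrn up and Lama1 down. Sparc, a collagen-binding glycoprotein, rose by 1.56 from 121 ± 3.26 to 369 ± 88.2 units (limma adjusted p = 4.90e-06) while Col4a1 and Col4a2 fell. From E13 to E18, 1 of 7 rose (Lamb2, by 1.3, limma adjusted p = 6.60e-06) and 2 fell, and from E18 to P70, 2 of 6 rose and 2 fell, with Agrn down by 2.24 (limma adjusted p = 8.57e-08). In spheres 3 of 12 were higher in MB, among them Lama4 by 2.32 (edgeR adjusted p = 2.02e-07), and 1 in FB. Of the fibril-binding proteoglycans and glycoproteins, 4 of 9 fell and 0 rose from E11 to E13, with Fn1 falling by 1.97 from 65.5 ± 10.9 to 16.0 ± 3.12 units (limma adjusted p = 1.66e-05). To E18, 2 of 9 rose and 4 fell, with Fn1 falling by a further 2.07 (limma adjusted p = 7.12e-07), and to P70, 2 of 4 rose and 1 fell. In spheres 3 of 11 were higher in MB and 3 in FB, with Fn1 at 94.2 ± 13.9 CPM in MB against 28.7 ± 6.14 in FB and Tnc at 279 ± 19.4 against 854 ± 40.2 (edgeR adjusted p = 1.78e-08 and 3.61e-14). The lists were compiled from known function with results of these data in view.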

How the data were processed

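RNA was purified with a micro column kit, and Smart-seq2 libraries were made from 1 ng of RNA and tagmented with Tn5, per the labels' protocols, with no molecular identifiers or strand. Without giving their roles, the submitters' processing notes list the builds GRCm39 and mm10 and the tools DESeq2 1.34.0, Salmon 1.6.0 and STAR 2.3. The unit of the deposited captured values is not stated in the sources used here. The deposited sphere table holds raw counts per gene, per the file headers. The members and lists were chosen with earlier results of these data known. Every member was accounted for, and library values were given for those called with a group mean of at least 5 units or 10 CPM and for the highest of each class.

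Captured values were tested with limma 3.58.1 on log2(value + 1), with all 20 libraries in 1 fit and a mean-variance trend. For the spheres, edgeR 4.0.16 (quasi-likelihood, TMM, default filter on low counts) compared MB with FB, with SE taken as the log2 change over the root of F. Benjamini-Hochberg adjustment ran over all genes of a comparison, at a threshold of 0.05. The scripts were tested on simulated data. Repeated symbols (142 of 15139 captured lines) were left out. Whole reads behind the captured values were recovered within 0.02 reads for 12331 of 14997 genes (82.2%), 24 collagen chains among them, and edgeR was run on these as an alternative chosen after seeing the data. On them, 3023, 4873 and 2939 genes were called for the 3 comparisons in order of age. Levels per kilobase in spheres used the transcript lengths recovered with those reads, or GENCODE vM21 exon lengths where none was recovered.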

Additional observations from a re-analysis of the deposited data

Results flagged for a closer look

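In 15 of 117 groups of 4 to 6 libraries examined, 1 library stood apart by Dixon's criterion at 95%, which chance alone gives in about 1 group of 20. E13 replicate 1 was high in Col1a1 (13 units, others 0.883 to 2.49) and Col26a1 (3.96, others 0.274 to 0.878). E11 replicate 4 was low in Col1a1 (5.67 units, others 19.1 to 21.6), and E11 replicate 1 was low in Col4a5 (2.28, others 3.52 to 3.77). E18 replicate 1 was high in Col23a1 (24.1 units, others 8.72 to 11.9), Col26a1 (23.1, others 7.01 to 10.9) and Col9a1 (10.2, others 3.82 to 5.54), and E18 replicate 3 was low in Col4a5 (3.75, others 14.4 to 16.5). P70 replicate 3 was high in Col18a1 (4.42 units, others 0 to 1.62) and Col4a2 (21.3, others 10.1 to 13.1).

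In spheres, FB replicate 5 was low in Col26a1 (15.4 CPM, others 21.9 to 23.4) and high in Col5a1 (10.2, others 4.32 to 5.99). FB replicate 1 was high in Col22a1 (2.70 CPM, others 1.05 to 1.44), FB replicate 2 in Col2a1 (2.88, others 0.237 to 0.843) and MB replicate 1 in Col8a2 (0.289, others 0), all of them levels of few counts.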

How the results depend on the processing

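The count of collagen chains called stayed within 1.5 times the reported one in every alternative run. Of 783 recomputed values for 49 member results, 759 kept their direction and side of the threshold, 14 lost and 4 gained a call, and 6 changed sign. The sign changes were of differences that were not called: Col4a5 from E11 to E13 (-0.098 without E11 replicate 1 and -0.034 without E13 replicate 3, up to 0.082 with other libraries left out), Col11a1 from E13 to E18 (-0.053 with a weight per library and -0.029 without E18 replicate 3, up to 0.31) and Col6a1 in spheres (-0.20 without MB replicate 3 and -0.037 without FB replicate 3, up to 0.76). The background moved more: from E11 to E13, 3811 genes were called with only these ages in the fit and 4873 with a weight per library, against 2421, and from E18 to P70, 2939 were called by edgeR on recovered reads (9901 genes tested), against 5042. The cause was not tested. With the replicate number as a block, 9, 11, 8 and 10 chains and 2655, 5824, 5004 and 3650 genes were called in the 4 comparisons. Same-numbered libraries correlated between -0.148 and 0.25 in their deviations, and in each comparison not every library correlated best with its own number. These correlations give no ground for pairing by number, but they cannot exclude a shared animal or batch. The depth of P70 libraries (1606244 to 3683902 reads) limits low chains, for which 1 read per kilobase was worth 0.271 to 0.623 units.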
